A study of Mus musculus with 18 samples.

Results

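The genes described here are Cd4 and the genes around the choice between the helper and the cytotoxic T cell lineage. They are Cd4 itself, Cd8a and Cd8b1 for the chains of the CD8 coreceptor, and 5 genes for nuclear regulators, Zbtb7b, Runx1, Runx3, Tox and Myb. Their rows were taken by name from both tables, and all 8 were present among the 24391 genes listed. The set was chosen by measured values in part, those of Cd4 in every comparison and of Runx1 in the knockdown. Those values are given as a description, and no p-value is printed for them. Counts of calls that include these genes are listed for completeness, and nothing is read from them. Genes were tested at a normalized count of at least 10 in at least 3 libraries of the knockdown or 4 of the rescue. That left 6 of the 8 genes in each experiment, without Cd8a and Cd8b1.

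All libraries are of E2-10HA, a hybridoma of mouse T cells that the labels call mature, and total RNA without ribosomal RNA was sequenced with strand kept. For the knockdown, cells were infected with pLKO.1 holding L3MBTL3 shRNA_1, the only hairpin used, or with pLKO.1 scramble, and selected with puromycin (3 libraries each). In the rescue experiment, all groups, control included, were cells depleted of RBPJ, infected with a pMY-Bio vector and selected with blasticidin. The vector carried Flag-mRBPJ WT CRr, Flag-mRBPJ F261A/A284V CRr or no insert (empty vector), with 4 libraries per group. RBPJ is the DNA-binding factor of the Notch pathway, and L3MBTL3 is a chromatin protein described as a partner of RBPJ. No label says whether replicates were separate cultures, so the spread behind each p-value may be purely technical.

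Most T cells with an alpha-beta receptor descend from thymocytes that carried both coreceptors and kept only CD4 or CD8. CD4 binds MHC class II and CD8 binds MHC class I, and each brings the kinase Lck to the T cell receptor. In mice, Zbtb7b encodes ThPOK, the zinc finger repressor that commits cells to the CD4 lineage, while Runx3 and Runx1 encode DNA-binding factors that act through a silencer inside the Cd4 gene. Runx3 keeps Cd4 off in CD8 cells, and Runx1 does so in early thymocytes before coreceptors appear. Tox encodes an HMG-box factor that CD4 lineage cells need in the thymus, and Myb encodes a DNA-binding factor of blood progenitors and thymocytes.

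Knockdown libraries held 4882485 to 6129134 reads over all genes. Rescue libraries held 5923799 to 7921533 reads in replicates 1 and 2 and 3553505 to 4239479 in replicates 3 and 4. In each rescue group 1 pair of libraries differed by less than the sampling noise, namely replicates 1 and 2 of RBPJ WT, 3 and 4 of F261A/A284V, and 1 and 2 of the empty vector. Such a pair was averaged and counted as 1 sample, which gives rescue groups an n of 3. Empty vector replicates 3 and 4 differed by little more than that noise (chi-square per degree of freedom 1.06) and were kept apart. The empty vector may therefore hold fewer independent samples than its n. Rescue means therefore weight the replicates unequally: with F261A/A284V 2 of the 3 samples are replicates 1 and 2, while 2 of the 3 are replicates 3 and 4 for RBPJ WT and likewise for the empty vector. L3mbtl3 averaged 378 ± 13.8 in the libraries labelled L3MBTL3 shRNA and 422 ± 61.8 in scramble libraries (SD, n = 3 each). The library labelled scramble replicate 3 held 351.5, below all 3 libraries labelled L3MBTL3 shRNA, and knockdown directions below follow the labels. Rbpj averaged 752 ± 101 with RBPJ WT, 778 ± 125 with F261A/A284V and 281 ± 32.1 with the empty vector (SD, n = 3 each). Of 12 T cell markers, 9 had a row in the tables, and their normalized counts summed to between 3572 and 5053 in every library. The summed B cell, NK cell and stromal markers reached at most 3.69, 4.62 and 2.46 in any library.

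Promoter sequences of the lineage regulators are shown because both experiments concern a DNA-binding factor, RBPJ, and because RUNX factors are themselves members of the set. Of the 8 genes, 5 had an entry in the RefSeq promoter table (build GRCm38.p6, 250 bases before to 50 bases after a gene start), with 8 entries in all. They were Zbtb7b, Runx1, Runx3, Cd8a and Myb. The RBPJ motif searched was GTGGGAA, read as TTCCCAC on the other strand, and the RUNX motif was TGTGGT, read as ACCACA on the other strand. Of 32851 promoters of that length, 6.38% held the RBPJ motif and 16.8% the RUNX motif. Among the 8 entries the RBPJ motif was found once, in a Zbtb7b promoter, and the RUNX motif was found in 1 promoter each of Zbtb7b, Runx3 and Runx1. The following are 1 promoter each of Zbtb7b (chr3:89393329-89393628, minus strand), Runx3 (chr4:135120395-135120694, plus strand) and Runx1 (chr16:92826025-92826324, minus strand), written 5′ to 3′ in the direction of the gene. Capitals mark the RBPJ motif in Zbtb7b and the RUNX motif in the others.
Zbtb7b: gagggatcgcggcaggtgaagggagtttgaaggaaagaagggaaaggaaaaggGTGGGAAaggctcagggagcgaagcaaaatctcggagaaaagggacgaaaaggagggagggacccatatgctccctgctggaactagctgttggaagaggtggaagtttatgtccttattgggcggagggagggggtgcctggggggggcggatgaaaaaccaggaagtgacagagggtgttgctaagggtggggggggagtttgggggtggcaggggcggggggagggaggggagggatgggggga
Runx3: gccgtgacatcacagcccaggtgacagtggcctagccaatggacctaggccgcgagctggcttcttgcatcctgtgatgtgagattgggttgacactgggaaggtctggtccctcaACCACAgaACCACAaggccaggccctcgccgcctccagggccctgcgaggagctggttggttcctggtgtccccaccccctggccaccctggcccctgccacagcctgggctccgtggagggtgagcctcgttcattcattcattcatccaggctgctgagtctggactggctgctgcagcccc
Runx1: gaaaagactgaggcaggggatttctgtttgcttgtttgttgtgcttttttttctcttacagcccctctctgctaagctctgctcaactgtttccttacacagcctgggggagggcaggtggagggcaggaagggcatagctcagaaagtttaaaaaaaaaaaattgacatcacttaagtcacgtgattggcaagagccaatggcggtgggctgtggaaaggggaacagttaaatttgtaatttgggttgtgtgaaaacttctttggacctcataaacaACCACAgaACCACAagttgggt
In Zbtb7b the match started 197 bases before the gene start. In Runx3 the RUNX matches started 134 and 126 bases before the start, and in Runx1 both lay in the 50 bases after it. No match overlapped another. The Runx3 and Runx1 pairs of matches lie in a shared run of 18 letters, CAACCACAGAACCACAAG, which stood in 4 promoter entries of the table, those of Gm16225, Runx1, Runx2 and Runx3. These matches are letters in a window and do not show binding.

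The line expressed the helper-lineage regulator far above its coreceptor. Levels of different genes were compared as normalized counts per kb of exon, with exon lengths from the GENCODE annotation of GRCm38. In scramble libraries Zbtb7b stood at 285 ± 35.8 normalized counts per kb, Myb at 175 ± 7.11, Runx3 at 142.5 ± 4.76, Tox at 67.2 ± 5.20 and Runx1 at 42.4 ± 1.20 (SD, n = 3). Cd4 stood at 2.92 ± 0.525, below every regulator, and Cd8b1 and Cd8a at 0.697 ± 0.641 and 0.0858 ± 0.149. In that order no 2 neighbours from Zbtb7b down to Cd8b1 overlapped among the scramble libraries, while Cd8b1 and Cd8a did. In the libraries labelled L3MBTL3 shRNA the order was the same, but Myb and Runx3 overlapped. In all 3 rescue groups Zbtb7b and Myb overlapped over the samples, with both lower in replicates 1 and 2, but within each rescue library Zbtb7b lay above Myb. Cd4 stood at 35.9 ± 10.6 normalized counts per kb with RBPJ WT, at 15.2 ± 9.11 with F261A/A284V and at 20.9 ± 10.4 with the empty vector (SD, n = 3 each). With RBPJ WT the samples reached 48.1, inside the range of Runx1 in that group, 45.4 to 53.0. Both upper values were of the averaged replicates 1 and 2, so Cd4 lay below Runx1 there, as it did in replicates 3 and 4. The knockdown and rescue tables were normalized separately by the authors and hold differently treated cells, so levels were not tested across them.

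**Figure D1:**
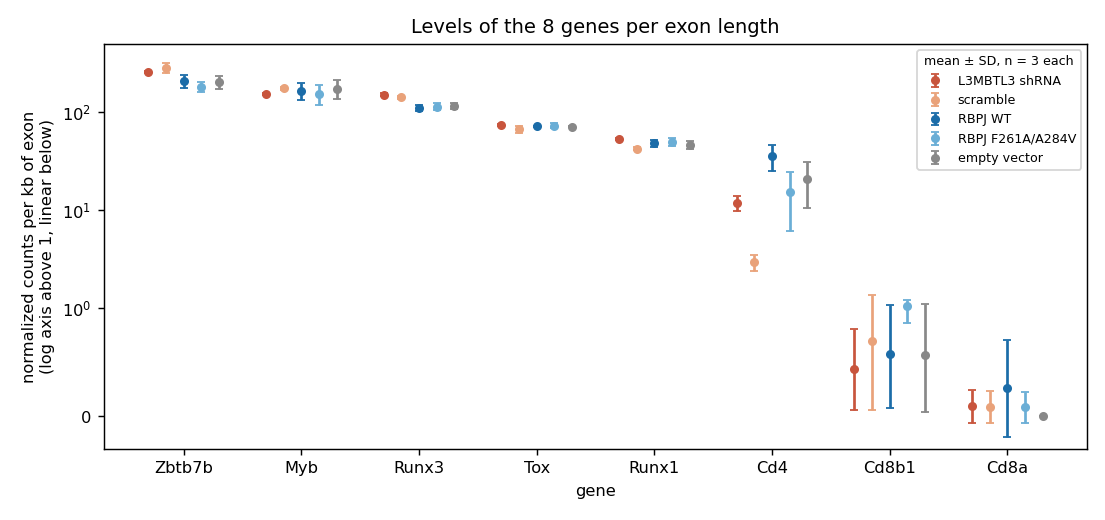
Normalized counts per kb of exon (y axis, logarithmic above 1 and linear below) for the 8 genes (x axis). Points are group means and bars are SDs over 3 samples, coloured by group. The 5 regulators sit above 40 in every group, Cd4 lies between 2.92 and 35.9, and Cd8b1 and Cd8a lie near 0.

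CD8 transcripts were at the limit of counting. Cd8a had 5 reads in all, in 4 of the 18 libraries and at most 2 in any of them, among 102036093 reads. Cd8b1 had 20 reads, in 12 of the 18 libraries and at most 3 in any of them. Both genes were thus at or under the floor of 3 counts per library in every group, and no fold change is given for them. A difference between groups in these genes was not detectable at this depth.

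Cd4 was the member that differed most between the knockdown groups. Its normalized counts were 56.7, 44.2 and 41.3 in the libraries labelled L3MBTL3 shRNA (replicates 1, 2 and 3), against 14.04, 11.5 and 9.83 in the scramble libraries. The groups did not overlap, and the lowest library labelled L3MBTL3 shRNA lay above the highest scramble library. These values rest on 59, 45 and 43 reads in the libraries labelled L3MBTL3 shRNA and on 15, 12 and 8 reads in the scramble libraries. The means were 47.4 ± 8.21 and 11.8 ± 2.12 (SD, n = 3 each). On the log2(value + 1) scale, which understates the change of low genes, the difference was 1.92 (SE 0.238, 95% interval 1.37 to 2.46), or 3.78-fold. Leaving out any 1 library kept it between 1.79 and 2.04. In bulk RNA, more cells with Cd4 transcripts and more transcripts per cell cannot be told apart. The summed myeloid markers ranged from 10.6 to 14.4 in the libraries labelled L3MBTL3 shRNA and from 7.49 to 17.2 in scramble libraries, with 1 of the 6, Cd14, at 0 in both groups. Hba-a1, a globin gene of red blood cells with a near-identical copy, had 17.3, 28.5 and 19.2 normalized counts in the libraries labelled L3MBTL3 shRNA and 17.8, 23.0 and 13.5 in scramble libraries, and Hbb-b1 was at 0. Their part in the Cd4 values was not tested.

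**Figure D2:**
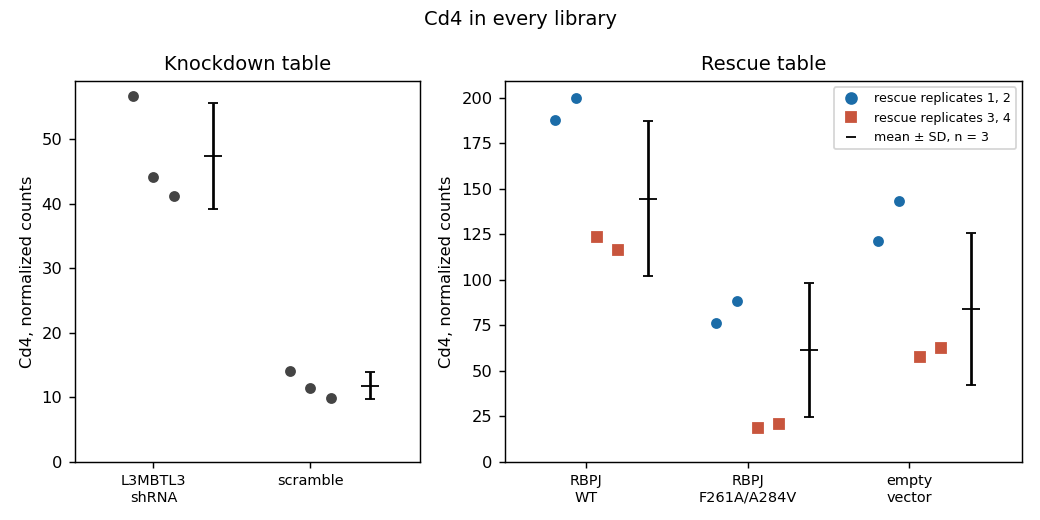
Normalized counts of Cd4 (y axes, linear from 0, with different ranges) in each library of the knockdown table (left panel) and the rescue table (right panel), by group (x axes). Points are libraries in replicate order, circles and squares on the right are replicates 1 and 2 and replicates 3 and 4, and bars are mean ± SD over 3 samples. Libraries labelled L3MBTL3 shRNA lie at 41.3 to 56.7, above the scramble libraries at 9.83 to 14.04, and in the rescue replicates 1 and 2 lie above replicates 3 and 4 within each group.

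Runx1, whose product represses Cd4 in early thymocytes, was also higher in the libraries labelled L3MBTL3 shRNA. It had 658, 622 and 632 normalized counts there, against 524, 512 and 495 in scramble libraries. The groups did not overlap. Averages of 637 ± 18.8 and 510 ± 14.4 (SD, n = 3 each) gave a log2 difference of 0.32 (SE 0.054, 95% interval 0.20 to 0.44), or 1.25-fold.

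The other regulators differed less. Zbtb7b, which encodes ThPOK, had 1397, 1472 and 1441 normalized counts in the libraries labelled L3MBTL3 shRNA and 1482, 1476 and 1825 in scramble libraries. The groups did not overlap by a narrow margin, and scramble replicate 3 stood above all the others. The log2 fold change of Zbtb7b was -0.14 (SE 0.086, 95% interval -0.34 to 0.05), with a limma adjusted p of 0.318. Runx3 averaged 758 ± 27.2 in the libraries labelled L3MBTL3 shRNA and 713 ± 23.8 in scramble libraries (SD, n = 3 each), without overlap. Its log2 fold change was 0.09 (95% interval -0.04 to 0.21), with a limma adjusted p of 0.334. Tox averaged 559 ± 14.03 and 512 ± 39.6 in the same order (SD, n = 3 each), and here the groups overlapped (log2 0.13, 95% interval -0.03 to 0.29, limma adjusted p = 0.275).

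Myb was lower in every library labelled L3MBTL3 shRNA. It had 1358, 1356 and 1401 normalized counts there and 1513, 1547 and 1636 in scramble libraries. The groups did not overlap. Averages of 1372 ± 25.1 and 1565 ± 63.5 (SD, n = 3 each) gave a log2 fold change of -0.19 (SE 0.053, 95% interval -0.31 to -0.07). The limma adjusted p was 0.0798, and it was 0.0200 with the replicate number as a block, so the call depends on that choice. Without a block it was also called when scramble replicate 3 was left out.

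Over all genes tested, 3.32% were called at an adjusted p under 0.05 in the knockdown, and 2 of the 6 tested members were, Cd4 and Runx1. Both had been chosen with these values in view, so nothing is read from the count. With the replicate block 22.2% of all genes were called, and 3 members, Myb being the third. The groups stood apart for 5 of the 6 members (Cd4, Runx1 and Runx3 on the higher side, Zbtb7b and Myb on the lower), against 35.2% of all genes tested. This count also includes Cd4 and Runx1, chosen with these values in view, so nothing is read from it. The calls depend on single libraries. Leaving out scramble replicate 2, or any 1 of the 3 libraries labelled L3MBTL3 shRNA, gave 0 members called. Over all genes these fits called 0, except for 5 when replicate 3 labelled L3MBTL3 shRNA was left out. Without scramble replicate 3, 3 members and 1029 genes were called. The log2 difference of Runx1 stayed between 0.30 and 0.34 in these fits.

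**Figure D3:**
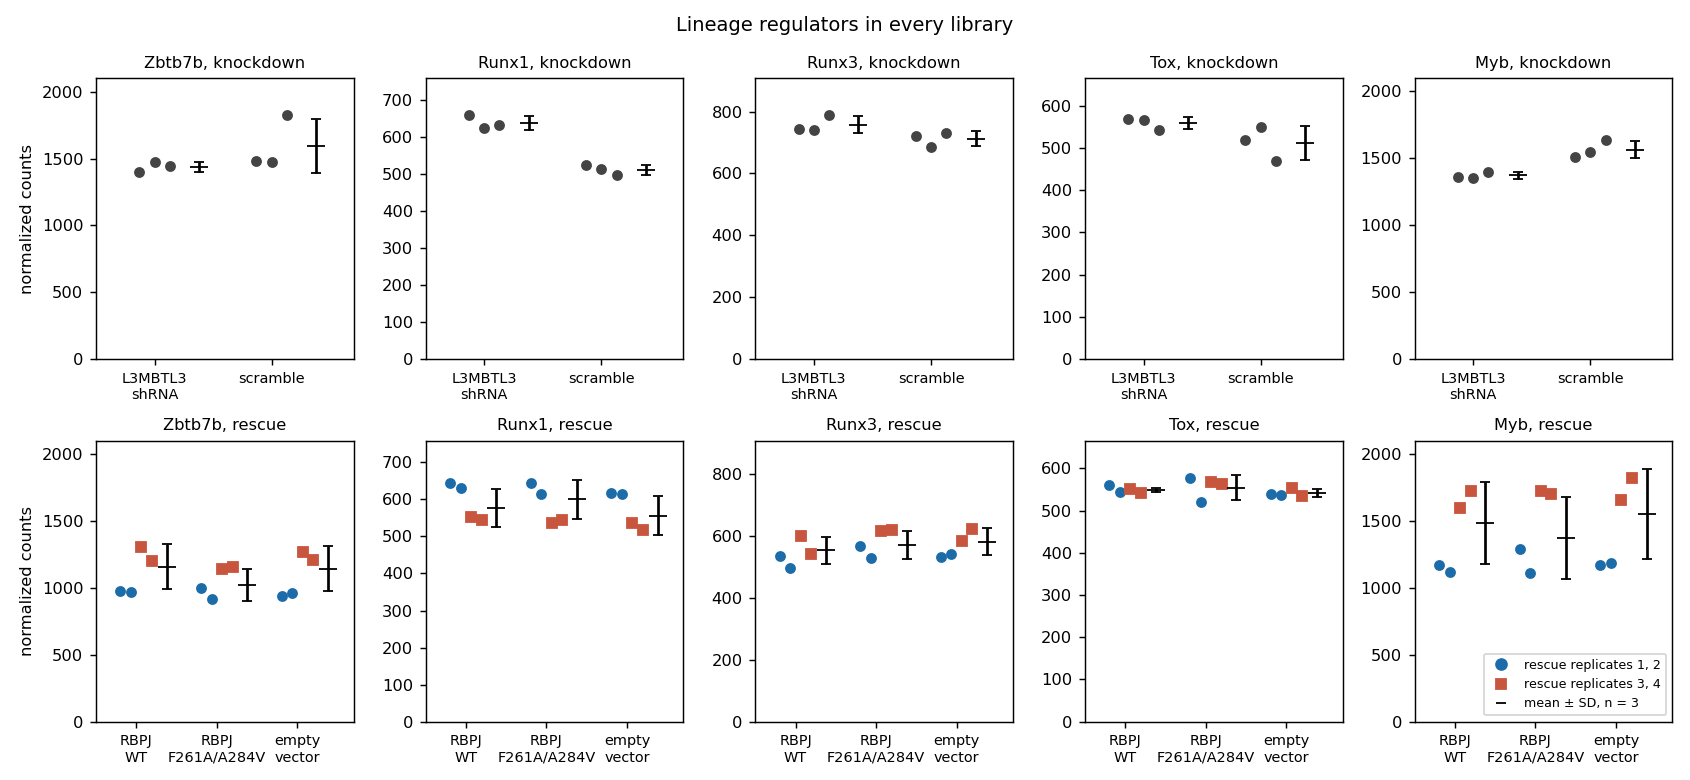
Normalized counts (y axes, linear from 0) of the 5 regulators in each library of the knockdown table (top row) and the rescue table (bottom row), by group (x axes). Points are libraries in replicate order, circles and squares in the bottom row are replicates 1 and 2 and replicates 3 and 4, and bars are mean ± SD over 3 samples. Runx1 stands apart between the knockdown groups, at 637 ± 18.8 with the hairpin and 510 ± 14.4 with scramble, while in the rescue the replicates of Myb, Zbtb7b and Runx1 lie farther apart than the groups.

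In the rescue experiment Cd4 was highest with RBPJ WT, lowest with F261A/A284V and in between with the empty vector, in replicates 1 and 2 and in replicates 3 and 4 alike. With RBPJ WT it had 188, 200.2, 124 and 117 normalized counts in replicates 1 to 4, resting on 275, 316, 97 and 83 reads. With F261A/A284V it had 76.5, 88.1, 18.5 and 20.6, resting on 86, 139, 12 and 14 reads. With the empty vector it had 121, 143, 57.5 and 62.7, resting on 185, 210, 42 and 41 reads. Replicates 1 and 2 lay above replicates 3 and 4 in every group. The labels name no batch, and this divide was found in the data, so values are also given on each side of it.

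RBPJ WT against the empty vector gave higher Cd4 on both sides of the divide. RBPJ WT libraries averaged 144.7 ± 42.8 and empty vector libraries 84.1 ± 41.8 (SD, n = 3 each), and over all replicates the groups overlapped. The log2 difference was 0.77 (SE 0.507, 95% interval -0.34 to 1.88) in the fit to all 12 libraries. With near-identical libraries averaged and the divide as a term it was 0.84 (SE 0.190). It was 0.55, or 1.47-fold, within replicates 1 and 2 and 0.99, or 1.98-fold, within replicates 3 and 4. On neither side did the groups overlap.

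F261A/A284V against the empty vector gave lower Cd4 on both sides of the divide. Within replicates 1 and 2 the mean was 82.3 with F261A/A284V and 132 with the empty vector, and within replicates 3 and 4 it was 19.5 and 60.1. Over all replicates the means were 61.4 ± 36.7 with F261A/A284V and 84.1 ± 41.8 with the empty vector (SD, n = 3 each) with the unequal weights given above, and the groups overlapped. The log2 difference was -1.12 (SE 0.507) in the fit to all 12 libraries, and -1.03 (SE 0.197) with near-identical libraries averaged and the divide as a term. Cd4 with F261A/A284V was 1.60-fold lower (log2 -0.68) within replicates 1 and 2 and 2.98-fold lower (log2 -1.57) within replicates 3 and 4, where F261A/A284V had 12 and 14 reads.

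F261A/A284V set directly against RBPJ WT gave the widest separation of Cd4 in the rescue. The highest library with F261A/A284V, at 88.1, lay below the lowest with RBPJ WT, at 117, and 3.7% of all genes tested likewise had no overlap between these groups. The log2 difference was -1.90 (SE 0.507) in the fit to all 12 libraries and -1.87 (SE 0.197) with near-identical libraries averaged and the divide as a term. Cd4 was 2.34-fold lower with F261A/A284V than with RBPJ WT within replicates 1 and 2 and 5.90-fold lower within replicates 3 and 4. The comparisons share groups, and so are not independent of each other. The summed myeloid markers ranged from 30.9 to 47.5 with RBPJ WT, 44.7 to 61.5 with F261A/A284V and 50.7 to 103 with the empty vector. The range with F261A/A284V overlapped both others, but every RBPJ WT library lay below every empty vector library. Of the 6 myeloid markers 1, Cd14, was at 0 with the empty vector. Hba-a1 had 7.51, 18.4, 3.82 and 0 normalized counts with RBPJ WT (replicates 1 to 4), 4.45, 4.44, 4.62 and 0 with F261A/A284V, and 11.1, 13.6, 5.48 and 4.59 with the empty vector, with Hbb-b1 at 0. Their part in the Cd4 values was not tested.

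None of the 5 regulators passed the test in any rescue comparison. Runx1 had 644, 630, 552 and 545 normalized counts with RBPJ WT (replicates 1 to 4), 644, 615, 536 and 545 with F261A/A284V, and 618, 614, 535 and 517 with the empty vector. RBPJ WT lay just above the empty vector on both sides of the divide, while F261A/A284V did not stand apart from RBPJ WT or from the empty vector on both sides. With near-identical libraries averaged and the divide as a term, the log2 fold change of Runx1 was 0.06 for RBPJ WT against the empty vector (95% interval -0.06 to 0.17), 0.04 for F261A/A284V against the empty vector (-0.08 to 0.15) and -0.02 for F261A/A284V against RBPJ WT (-0.14 to 0.10). Zbtb7b gave 0.02 (-0.10 to 0.14), -0.04 (-0.17 to 0.08) and -0.07 (-0.19 to 0.06) in the same order. The Runx3 values were -0.07 (-0.20 to 0.05), 0.03 (-0.10 to 0.15) and 0.10 (-0.03 to 0.23). Tox lay at 0.02 to 0.04 and Myb at -0.06 to 0.06 in these comparisons. The limma adjusted p of the regulators ranged from 0.571 to 1.00 in that fit, and rounded to 1.00 in the fit to all 12 libraries.

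**Figure D4:**
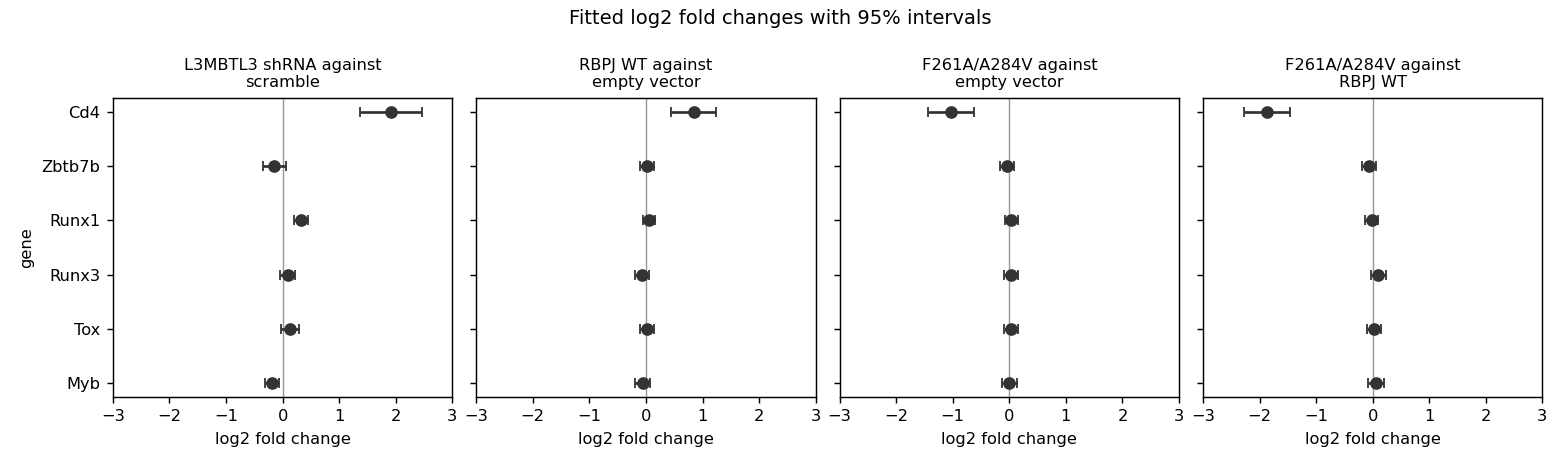
Log2 fold changes (x axes) of the 6 tested genes (y axis) in the 4 comparisons, 1 per panel, with points for fitted values and bars for 95% intervals. Knockdown values come from the limma fit to 6 libraries, and rescue values from the limma fit with near-identical libraries averaged and the replicate divide as a term. Cd4 lies at 1.92, 0.84, -1.03 and -1.87, a description only, because it was chosen with its values in view. In the fit to all 12 libraries its interval for RBPJ WT against the empty vector, -0.34 to 1.88, included 0. The regulators in the rescue panels lie between -0.07 and 0.10.

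Counts of calls add nothing independent here, since Cd4 was chosen with its values in view. In the fit to all 12 libraries 0 of the 6 tested members were called in each rescue comparison, where 0.248% (RBPJ WT against the empty vector), 0.0171% (F261A/A284V against the empty vector) and 0.316% (F261A/A284V against RBPJ WT) of all genes were called by limma. edgeR and DESeq2 on recovered reads also called 0 members in each. The unadjusted limma p was under 0.05 for 0, 1 and 1 of the 6 tested members, against 398, 240 and 540 of 11691 genes tested. The 1 member was Cd4 each time, so nothing is read from these counts. With the replicate block 1 member, Cd4, was called in each, against 2.23%, 0.65% and 4.74% of all genes. Nothing is read from that count either. The groups stood apart on both sides of the divide and in the same direction for 2 members, Cd4 and Runx1, with RBPJ WT against the empty vector (17.6% of all genes), and for Cd4 alone in the comparisons of F261A/A284V with the empty vector (10% of all genes) and with RBPJ WT (14.5%).

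Across the replicate divide Cd4 moved more than most genes. Its level was 76.5 to 200.2 normalized counts in the 6 libraries of replicates 1 and 2 and 18.5 to 124 in the 6 of replicates 3 and 4, a 2.42-fold higher level on average, and 1.60% of genes tested in the rescue had a larger log2 ratio in size. The median absolute log2 ratio over those genes was 0.28. Runx1 was also higher in replicates 1 and 2, at 614 to 644 against 517 to 552. Myb was lower in replicates 1 and 2, at 1114 to 1290 against 1599 to 1823, and so was Zbtb7b, at 918 to 1002 against 1143 to 1307. Runx3 was lower in replicates 1 and 2 within each group, and Tox overlapped. Depth differs along the same divide, and which of the cultures, the libraries or the sequencing differed cannot be told apart.

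Other regulators of the Cd4 and Cd8 genes and of the lineage choice were taken as a list of 44 genes, including RUNX partners, chromatin remodellers, deacetylases and T cell receptor signalling genes. Of these, 41 were tested in the knockdown and 42 in the rescue. In limma without a block 0 were called in any comparison, with 10, 2, 1 and 1 at an unadjusted p under 0.05 in the knockdown, RBPJ WT against the empty vector, F261A/A284V against the empty vector and F261A/A284V against RBPJ WT. Over all genes tested, that p was under 0.05 for 2949 of 11586 in the knockdown and for 398, 240 and 540 of 11691 in the rescue. edgeR called 1 in the knockdown (Ikzf3) and DESeq2 called 2 (Bcl11b and Ikzf3), against 472 and 655 of 11586 genes tested. Both tools called 0 of the list in the rescue comparisons. The median log2 fold change of the list in the knockdown was -0.01, and that of all genes tested was -0.01 as well.

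With the replicate block, 9 of the 41 passed in the knockdown, 5 on the higher side and 4 on the lower. That is close to the 22.2% of all genes that passed, so nothing is read from the count. The list was chosen with earlier results of these data known, and the genes that passed are given as a description. Ikzf3, which encodes the lymphoid factor Aiolos, averaged 1161 ± 64.2 in the libraries labelled L3MBTL3 shRNA and 657 ± 194 in scramble libraries (SD, n = 3 each), which is 0.87 on the log2 scale with a limma adjusted p of 0.000542. Bcl11b, a factor that fixes T cell identity, averaged 2085 ± 166 and 1522 ± 326 (log2 0.47, limma adjusted p = 0.00139). Satb1, a chromatin organizer of thymocytes, averaged 48.3 ± 10.4 and 26.1 ± 7.70 (log2 0.88, limma adjusted p = 0.0194). Zbtb7a, a relative of Zbtb7b, gave a log2 of 0.24 and Nfatc2, a factor switched on by calcium signals, 0.30. On the lower side, Egr1, an early response factor downstream of the T cell receptor, averaged 131 ± 74.5 in the libraries labelled L3MBTL3 shRNA and 232 ± 93.2 in scramble libraries (log2 -0.89, limma adjusted p = 0.000705). Its relative Egr2 gave -0.80, Tcf7, which encodes TCF-1, -0.24, and the repressor gene Gfi1 -0.16.

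In the rescue, Ikzf3 passed with the replicate block for RBPJ WT against the empty vector (log2 0.20, limma adjusted p = 0.0193) and for F261A/A284V against the empty vector (log2 0.22, limma adjusted p = 0.0309), but in neither with near-identical libraries averaged and the divide as a term. It averaged 894 ± 36.4 with RBPJ WT, 884 ± 63.3 with F261A/A284V and 768 ± 16.2 with the empty vector (SD, n = 3 each). Egr1 passed for F261A/A284V against RBPJ WT, at 85.8 ± 17.96 and 62.9 ± 11.2 (log2 0.57, limma adjusted p = 0.0179 with the block), and also with near-identical libraries averaged and the divide as a term (log2 0.59, limma adjusted p = 0.0322). Gfi1 passed in the same comparison with the block only (log2 0.19, limma adjusted p = 0.0182).

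The genes most like Cd4 in pattern were found by Pearson's r over the 18 libraries, after centring log2 values within the knockdown table and within each side of the rescue divide. The libraries share the same cell line and the same groups, so r is a description of these libraries. In all 11351 genes were compared. Predicted gene models (Gm followed by digits, or names ending in Rik) were then passed over in picking the highest and lowest. The highest were Itpr1 (an IP3-gated calcium channel, r = 0.92), Plxnc1 (a semaphorin receptor, 0.92) and Acpp (an acid phosphatase, 0.92). Next came Arsb (a lysosomal sulfatase, 0.91) and Rapgef3 (a cAMP-activated exchange factor, 0.90). Acpp averaged 103 ± 19.6 normalized counts in the libraries labelled L3MBTL3 shRNA and 41.8 ± 13.96 in scramble libraries (SD, n = 3 each). In the fit to all 12 rescue libraries its log2 difference was 0.51 for RBPJ WT against the empty vector and -0.31 for F261A/A284V against the empty vector. The lowest were Prkx (a protein kinase, r = -0.92), Lipg (a lipase, -0.91) and Asb2 (a ubiquitin ligase subunit, -0.90). Among the members, Runx1 gave 0.65, Tox 0.27, Zbtb7b -0.10, Runx3 -0.15 and Myb -0.63, and Rbpj itself gave -0.23. Within the 6 knockdown libraries, which fall into the groups compared, Runx1 gave 1.00, and in the rescue it gave 0.09 (replicates 1 and 2) and 0.17 (replicates 3 and 4), so its likeness to Cd4 rests on the knockdown groups. In the same order Myb gave -0.97, -0.50 and -0.28. Tox gave 0.75, -0.05 and -0.73, Zbtb7b -0.67, 0.15 and 0.78, and Runx3 0.67, -0.67 and -0.62. The small r of Tox, Zbtb7b and Runx3 over all libraries thus joins values of opposite sign.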

How the data were processed

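RNA was sequenced in 18 libraries of a mouse hybridoma line. The submitters' processing notes name the build mm9, DESeq2 1.24.0 and TopHat2 2.1.1. Read counting, and its use of strand, were not given in the sources used here. Deposited values are a signal made by the authors, normalized counts per gene, 1 table per experiment. In each library 100% of values were whole multiples of the value of 1 read (tolerance 0.1 read), so reads were recovered by division. Depth and the near-identical libraries are given above. Chi-square per degree of freedom was 0.859 for empty vector, 0.721 for RBPJ WT and 0.823 for F261A/A284V pairs, and 1.06 to 17.0 for other pairs within a group.

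In R 4.3.3, limma 3.58.1 (trend, 2-sided) was fitted to log2(value + 1) over each whole table, with a term for group alone, 6 libraries for the knockdown and 12 in 1 fit for the rescue. Adjusted p-values are Benjamini-Hochberg over 11586 and 11691 genes tested, called under 0.05. Alternatives were other pseudocounts (0.25 and 5), no filter, quantile scaling, edgeR 4.0.16 (quasi-likelihood) and DESeq2 1.42.0 on recovered reads, a replicate block, the divide between replicates 1 and 2 and replicates 3 and 4 as a term, each side of it alone, and each library left out. On recovered reads edgeR called 472 genes in the knockdown and 28, 2 and 29 in the rescue. On simulated data the knockdown fit recovered 85% of genes changed 2-fold and 100% of those changed 4-fold, and the fit of RBPJ WT against the empty vector 91% and 99%. The simulated libraries of an experiment shared a common mean profile and a fixed spread, without the replicate divide or near-identical pairs. These rates therefore do not say how many changes the fits can detect in the real libraries, least of all in the rescue.

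Same-numbered libraries of different groups correlated, as deviations from group means, at 0.24 to 0.54 in the knockdown and 0.55 to 0.81 in the rescue. Pairing is thus read from the data, not the labels, and in the rescue it is not separable from the divide (0.55 to 0.83 on the same side, -0.76 to -0.49 across). Blocked values are given where they change a call.

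The members, the list of 44 regulators, the markers and the motifs were chosen with earlier results of these data known. Named genes are all members, list genes that passed, and the 5 highest and 3 lowest in likeness to Cd4 other than predicted gene models. Exons of genes on the other strand overlap 6.26% of the exon length of Myb, 3.42% of Tox, 2.07% of Zbtb7b and 0.881% of Runx1, and reads there are uncertain where strand was not used. Of the marker lists, 1 gene is not reported here.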

Additional observations from a re-analysis of the deposited data

Results flagged for a closer look

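Cd4 moved in opposite directions with the RBPJ forms. With RBPJ WT every library lay above the empty vector mean on its side of the divide, by 0.51 to 1.03 on the log2 scale. The sides are replicates 1 and 2 and replicates 3 and 4. The log2 difference fitted to all 12 libraries was 0.77 (SE 0.507, 95% interval -0.34 to 1.88). With F261A/A284V every library lay below the empty vector mean on its side, by -1.65 to -0.58. The same fit gave a log2 difference of -1.12 (SE 0.507, 95% interval -2.23 to -0.02). These values are a description. Both comparisons share the empty vector libraries. Their difference is the comparison of F261A/A284V with RBPJ WT, a log2 difference of -1.90 (SE 0.507), for which no p is given because Cd4 was chosen with these values in view.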

How the results depend on the processing

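In the knockdown the direction of every tested member stayed the same under all alternatives run. Members called ranged from 0 to 3 when single libraries were left out, and all genes called from 0 to 1029. Over all genes the knockdown gave 385 calls, and 909 with quantile scaling, 655 with DESeq2 and 2575 with the replicate block. The replicate block, the divide as a term, averaging near-identical libraries with that term, and each side of the divide alone gave 1 member called in each rescue comparison, Cd4, against 0 without them. Cd4 was chosen with its values in view, so nothing is read from this. All-gene calls under the same settings, out of 11691 genes tested, are given below. Beyond Cd4 in the rescue, Myb in the knockdown and the list genes named above, the replicate block changed no call of a member or list gene. All-gene calls in the rescue, given for RBPJ WT against the empty vector, F261A/A284V against the empty vector and F261A/A284V against RBPJ WT, were 29, 2 and 37. They were 60, 7 and 78 with DESeq2 and 283, 81 and 598 with the divide as a term, 178, 11 and 229 with near-identical libraries averaged, 117, 15 and 191 within replicates 1 and 2, and 147, 134 and 824 within replicates 3 and 4. With the replicate block they were 116 higher and 145 lower genes in the first, 76 in the second and 554 in the third. Without a filter F261A/A284V against the empty vector gave 6, and quantile scaling gave 3.

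Small rescue log2 values of regulators changed sign. Myb in F261A/A284V against the empty vector was 0.0017, and -0.025 with quantile scaling, -0.0019 with edgeR, -0.00037 with DESeq2 and -0.021 within replicates 3 and 4. Zbtb7b in the same comparison gave 0.012 within replicates 1 and 2, as against -0.05. Tox in F261A/A284V against RBPJ WT gave -0.010 within replicates 1 and 2, as against 0.02. With single libraries left out, RBPJ WT against the empty vector ranged from -0.16 to 0.059 for Myb and -0.055 to 0.10 for Zbtb7b. F261A/A284V against the empty vector ranged from -0.094 to 0.12 for Myb, -0.012 to 0.076 for Runx1, -0.0020 to 0.075 for Runx3 and -0.12 to 0.026 for Zbtb7b. F261A/A284V against RBPJ WT ranged from -0.042 to 0.18 for Myb, -0.067 to 0.022 for Runx1 and -0.14 to 0.0065 for Zbtb7b. The cause was not tested. All-gene calls with single libraries left out ranged from 17 to 21, 2 to 3 and 20 to 37 in the order given above. Depth limits Cd4 most where it is low, at 8 to 15 reads in scramble libraries and 12 to 14 in F261A/A284V replicates 3 and 4, and it leaves Cd8a and Cd8b1 unmeasured.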

Other observations

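The genes next to Cd4 in the RefSeq order of GRCm38.p6, looked up after the values of Cd4 were seen, did not share its pattern where they could be measured. On one side lie Gpr162, P3h3 and Gnb3, and on the other Lag3, which encodes a CD4-like inhibitory receptor, Ptms and Mlf2. Gpr162, P3h3, Gnb3 and Lag3 never exceeded 9.61 normalized counts and were not tested. Ptms and Mlf2 were tested, and their log2 fold changes lay between -0.12 and 0.05 in the 4 comparisons, with limma adjusted p between 0.809 and 1.00.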
